A study of Homo sapiens with 6 samples.

Results

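The 10 genes described here carry the signals by which cells call up, steady or silence blood vessels, and were followed in osteosarcoma cells that lack CNTNAP4, a cell-surface protein of the contactin-associated family. They were chosen by name, with earlier results of these data known, and 10 of the 54308 genes listed in the table belong to the group. These were the VEGF ligands VEGFA, VEGFB, VEGFC and PGF, the VEGF receptors FLT1 and KDR, the angiopoietins ANGPT1 and ANGPT2 with their receptor TEK, and ANGPTL4, a secreted relative of the angiopoietins. All 10 had a value in all 6 libraries, so all 10 could be tested.

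The cells were 143B, an established human osteosarcoma line, grown in DMEM with serum. In the vector control (VC) group they had received the plasmid without the CNTNAP4 guide, and the study's supplement lists a negative control guide. In the KO group they had received a plasmid with Cas9, an RFP marker and a guide against CNTNAP4. The labels give a transfection of 48 h for all libraries, while the methods give a longer incubation with the plasmid. RFP-positive cells of both transfections were sorted into wells, single-cell KO colonies were established and a pair of colonies was grown on, and which colony gave which KO library is not given in the sources used here. There were 3 VC and 3 KO libraries, which the study calls biological replicates. The sources used here do not say whether each came from its own culture or colony, so the p-values measure the spread between these samples. In the methods the sequenced cells were clonal, with or without the KO. The knockout and differences between clones therefore cannot be told apart. The cells were cultured alone, with no vessels or host tissue, and in such bulk RNA fewer cells of a type and less RNA per cell cannot be told apart.

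The deposited values are log2 signals that the authors had quantile-normalized, so that every library ran from -10.87 to 12.04 with a median of 0.62. Between 20333 and 21041 genes had a value in each library, and the depth is unknown. CNTNAP4 itself had a value only in VC replicate 3, at -7.18, so its level cannot check the knockout. The study reports checks of the deletion in its KO clones by qRT-PCR, western blot and a T7 endonuclease I assay. The 11 osteoblast lineage markers were mixed: SPARC stood at 6.46 to 6.95, COL1A1 at 2.28 to 2.73 and RUNX2 at 1.30 to 1.69, but COL1A2 at -5.72 to -4.59 and SP7 at -7.66 to -6.52 in 4 libraries, BGLAP had a value in only 2, and IBSP and DMP1 in none. The 12 endothelial markers were mixed too: PECAM1 lay at -6.00 to -4.64, CDH5 was near -7.9 in the 4 libraries with a value, and CLDN5 was empty in 5 of 6, while ROBO4 lay at 0.02 to 3.17, SOX18 at 0.23 to 1.74, EGFL7 at 0.24 to 1.38 and ERG at -0.19 to 0.44. Because the linear unit under the log2 scale is not given in the sources used here, levels of different genes are not ranked against each other.

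As background, VEGF ligands are secreted dimers that bind receptor tyrosine kinases, chiefly on endothelial cells. VEGFA is the main driver of vessel sprouting and permeability, is induced by low oxygen through hypoxia-inducible factors (HIFs), and is made by many tumors, osteosarcoma included. Angiopoietins act through TEK, the Tie2 receptor: ANGPT1 activates it and steadies vessels, and ANGPT2 is a context-dependent antagonist that loosens them.

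In KO, 5 of these genes were higher, 1 was lower and 4 did not pass the test. Those higher were VEGFA (3.11-fold), VEGFC (2.32-fold), FLT1 (1.39-fold), ANGPT2 (1.62-fold) and ANGPTL4 (7.38-fold), and the lower one was PGF (1.32-fold). VEGFB, KDR, ANGPT1 and TEK did not pass. The test was limma's moderated test across 19306 genes with Benjamini-Hochberg adjustment, and a gene passed at an adjusted p under 0.05. Much of the transcriptome passed it: 13.1% of genes were higher in KO and 19.8% were lower, 32.9% in either direction. The median log2 fold change of the 10 genes was 0.58, against -0.13 over all genes tested. Of the 10, 3 both passed and were higher by at least 2-fold, where 4.1% of all genes did so, and 9.53% in either direction. TEK was 3.00-fold higher but did not pass. Because the 10 and the lists below were chosen with earlier results known, these counts and medians describe them and do not test them.

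**Figure D1:**
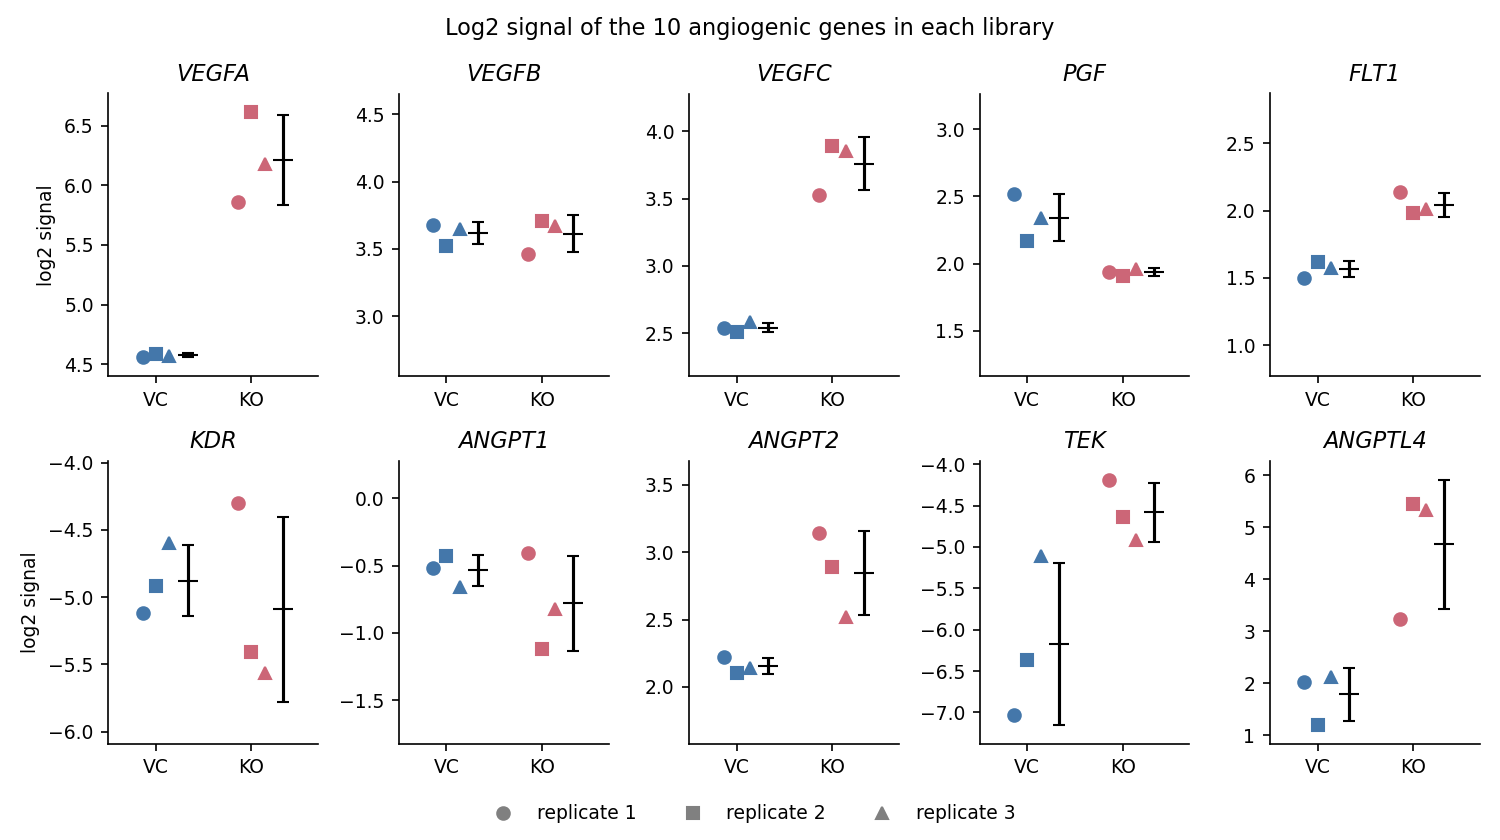
Log2 signal of the 10 genes (1 panel each, each with its own vertical axis) in the 3 VC and 3 KO libraries; points are libraries and bars give the mean ± SD of each group. The KO points lie wholly above the VC points for VEGFA, VEGFC, FLT1, ANGPT2, ANGPTL4 and TEK, wholly below for PGF, and among them for VEGFB, KDR and ANGPT1.

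VEGFA (chr6:43770184-43786487, plus strand; positions are those of GENCODE 29 on GRCh38) had log2 signals of 4.56, 4.59 and 4.57 in VC replicates 1 to 3 and of 5.86, 6.61 and 6.18 in KO replicates 1 to 3. Every KO library stood well above the VC libraries, which lay close together. The means were 4.57 ± 0.016 and 6.21 ± 0.38 (SD, n = 3 each), a log2 fold change of 1.64 (SE 0.20, adjusted p = 0.00963, limma). The difference stayed past the threshold with each of the 6 libraries left out in turn, at adjusted p from 0.00502 to 0.0444.

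VEGFC (chr4:176683538-176792727, minus strand), the ligand best known for growth of lymphatic vessels, read 2.54, 2.51 and 2.58 in VC and 3.53, 3.89 and 3.85 in KO. Its groups were again far apart, with a tight VC group and KO replicate 1 the lowest of the KO libraries, as for VEGFA. Its log2 fold change was 1.22 (SE 0.12, adjusted p = 0.00789, limma), and it passed with each library left out in turn, the highest adjusted p being 0.0412.

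VEGFB (chr11:64234538-64238793, plus strand), a ligand of FLT1 linked to fatty acid handling and cell survival more than to sprouting, was 3.68, 3.52 and 3.65 in VC and 3.46, 3.71 and 3.67 in KO. The groups overlapped, and no difference was detectable. It differed by -0.0035 in log2 (adjusted p = 0.979), with a 95% interval of -0.25 to 0.25, and its sign turned under 4 of the settings tried.

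PGF (chr14:74941834-74955784, minus strand), placental growth factor, which binds FLT1 but not KDR, was the member that fell. It read 2.52, 2.17 and 2.34 in VC and 1.94, 1.91 and 1.96 in KO, so that all KO libraries lay below all VC libraries by a small margin. The log2 fold change was -0.41 (SE 0.11, 95% interval -0.67 to -0.14, adjusted p = 0.0387, limma). The call was lost when the libraries were centred on their medians (-0.32, adjusted p = 0.0507) and when any library except VC replicate 2 was left out (adjusted p from 0.0542 to 0.109). The other 334 genes of chromosome 14 whose mean signal was in the upper 50% were shifted by a median of -0.35 in log2, against -0.08 on the other chromosomes, and the 20 of them nearest to PGF by -0.31. The part of that shift in the PGF value was not tested.

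The ligands were also set against each other within each library. The log2 difference of VEGFA minus VEGFB was 0.88, 1.07 and 0.92 in VC and 2.40, 2.89 and 2.51 in KO. For VEGFA minus VEGFC it was 2.02, 2.08 and 1.99 in VC and 2.32, 2.71 and 2.33 in KO. Each difference was larger in every KO library, by 1.64 and 0.42 on average, but the design is too small for a test of these differences to pass 0.05. In all, 3 such pairs were compared by two-sided exact permutation tests over the libraries, and each gave p = 0.1 (0.1 after adjustment), the smallest that 3 against 3 allow.

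Sequence upstream of the start site is shown for the 4 members that changed and have an entry in the RefSeq promoter table, which held 7 of the 10 members (none for VEGFA, ANGPT1 or ANGPT2). Each run gives, 5′ to 3′ on the gene's strand, the 220 bases from 250 to 31 before the start, RefSeq on GRCh38.p14, and covers no exon of GENCODE 29. RefSeq starts differ from the GENCODE spans given here, and the ANGPTL4 window lies inside the GENCODE span of the gene, in an intron of transcripts that begin farther upstream. They lie at chr19:8363905-8364124 (ANGPTL4, plus strand), chr4:176792953-176793172 (VEGFC, minus), chr13:28495159-28495378 (FLT1, minus) and chr14:74955795-74956014 (PGF, minus, the farther upstream of its 2 starts). Capitals mark every match, on either strand, to a hypoxia response core, spelled ACGTG or else GCGTG, or to the GC box, spelled GGGCGG.
ANGPTL4: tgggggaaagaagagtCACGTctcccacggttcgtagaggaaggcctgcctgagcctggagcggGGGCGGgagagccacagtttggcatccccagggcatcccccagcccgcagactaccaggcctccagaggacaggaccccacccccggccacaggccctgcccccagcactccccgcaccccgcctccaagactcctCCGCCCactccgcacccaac
VEGFC: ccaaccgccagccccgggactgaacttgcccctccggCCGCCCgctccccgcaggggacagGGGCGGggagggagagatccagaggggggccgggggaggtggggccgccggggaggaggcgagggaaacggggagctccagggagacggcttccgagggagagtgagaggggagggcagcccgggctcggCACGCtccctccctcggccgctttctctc
FLT1: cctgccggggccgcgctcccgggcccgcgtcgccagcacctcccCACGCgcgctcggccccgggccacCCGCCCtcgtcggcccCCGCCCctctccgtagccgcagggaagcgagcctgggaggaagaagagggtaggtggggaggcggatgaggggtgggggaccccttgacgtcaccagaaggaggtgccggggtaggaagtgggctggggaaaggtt
PGF: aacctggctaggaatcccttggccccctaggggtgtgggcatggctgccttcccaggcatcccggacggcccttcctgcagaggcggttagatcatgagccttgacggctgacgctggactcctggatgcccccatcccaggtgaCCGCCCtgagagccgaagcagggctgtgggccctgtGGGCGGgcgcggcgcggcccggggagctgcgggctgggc
ANGPTL4 held 1 match to ACGTG, at positions -234 to -230 counted from its start, and 2 GC boxes. VEGFC held 1 match to GCGTG, at -59 to -55, and FLT1 held 1, at -206 to -202, each beside 2 GC boxes, while the PGF window held 2 GC boxes and neither core. The window of the other PGF start, most of which is exon of PGF and is not shown, held 1 match to GCGTG. Windows of the members that did not pass are not shown either. Among them VEGFB also held a match to GCGTG, at -61 to -57, beside GC boxes. KDR held GC boxes and neither core, and TEK held no match. Whether these letters bear on the changes was not tested. No window held TGATGNAA, a composite site of CHOP and ATF4, or TGANTCA, the AP-1 site. Of 35116 RefSeq windows of this length, 16.3% held ACGTG, 29.1% GCGTG, 38.9% the GC box, 2.82% TGATGNAA and 5.98% TGANTCA. No 2 of these matches overlapped in the 4 windows. A match is a string of letters and not a measured site, and in the background these cores are common.

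Of the receptors, FLT1 (chr13:28300344-28495145, minus strand), the VEGF receptor that also acts as a decoy for VEGFA, read 1.5, 1.62 and 1.57 in VC and 2.14, 1.98 and 2.01 in KO. Both groups were tight and did not overlap. FLT1 was higher in KO by 0.48 on the log2 scale (SE 0.080, 95% interval 0.27 to 0.68, adjusted p = 0.0153, limma). Without VC replicate 1, VC replicate 3 or KO replicate 3 the adjusted p was 0.0619, 0.0626 and 0.0514, at log2 fold changes of 0.44 to 0.49.

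KDR (chr4:55078259-55125595, minus strand), the main signalling receptor for VEGFA, had low signals, of -5.12, -4.92 and -4.60 in VC and -4.30, -5.41 and -5.56 in KO, and the KO libraries fell on both sides of the VC libraries. Its log2 fold change was -0.21, with a 95% interval of -1.15 to 0.72 (adjusted p = 0.68), wide enough to hold a change of 2-fold downward.

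FLT4, the receptor of VEGFC, and the neuropilins NRP1 and NRP2, which act as co-receptors for VEGF ligands and semaphorins, stood in a list of 17 further genes of the VEGF and angiopoietin axis. NRP2 read 2.64, 2.62 and 2.68 in VC and 3.78, 4.10 and 3.86 in KO, 2.40-fold higher (log2 fold change 1.27, SE 0.10, adjusted p = 0.00614), and passed with each library left out. NRP1 rose by less, 0.40 (SE 0.061, adjusted p = 0.0132), a call lost without VC replicate 1 (0.0584), VC replicate 3 (0.0587) or KO replicate 3 (0.0508). FLT4 read 0.34, 0.25 and 0.30 in VC and 0.55, 0.61 and 0.52 in KO, a log2 fold change of 0.26 (adjusted p = 0.0375) that passed again only without KO replicate 1. FLT1, NRP1 and FLT4 had smaller fold changes than VEGFA and VEGFC, and NRP2 had one close to that of VEGFC.

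**Figure D2:**
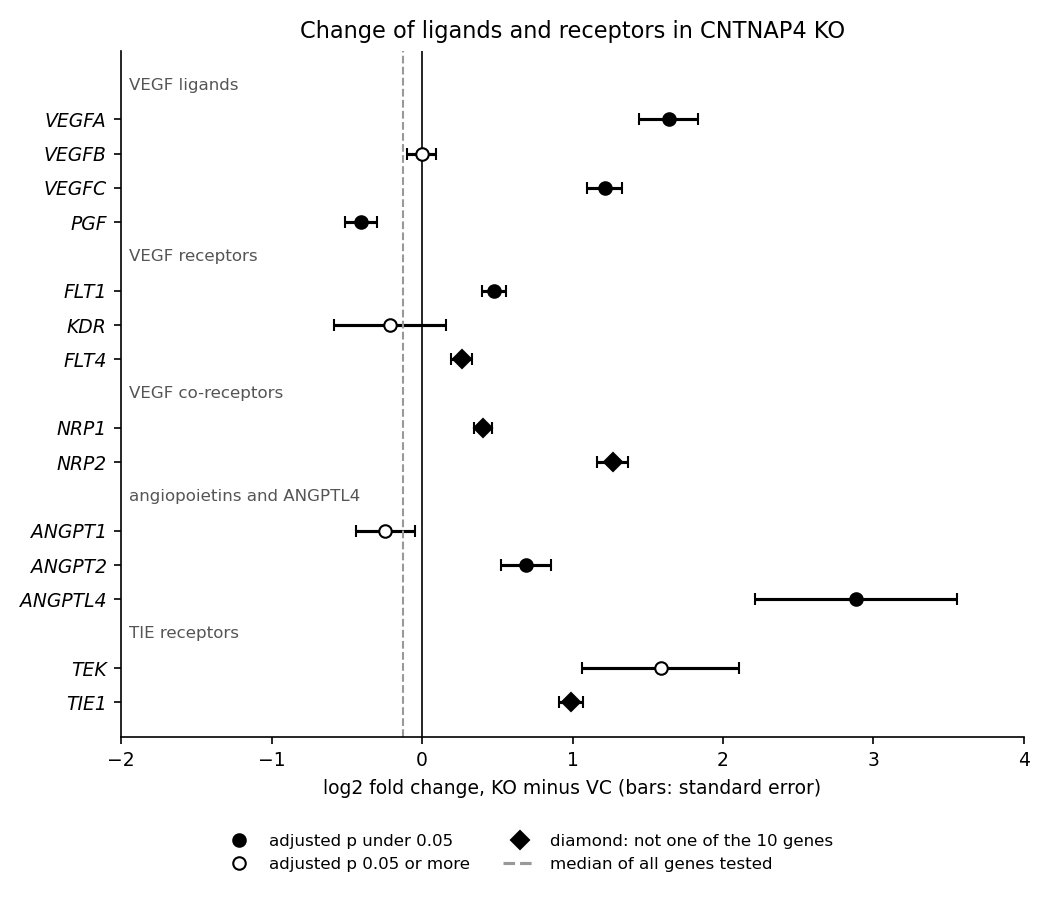
Log2 fold change (KO minus VC) of the 10 genes and of 4 receptors or co-receptors that are not among them (diamonds), grouped by role, with bars of 1 standard error from limma; filled symbols passed at an adjusted p under 0.05 and the dashed line marks the median of all genes tested, -0.13. ANGPTL4 lies farthest to the right with the widest bar (2.88, SE 0.67), and VEGFB sits at 0.

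Among the angiopoietins, ANGPT2 (chr8:6499651-6563409, minus strand) was higher in KO. It read 2.22, 2.10 and 2.14 in VC and 3.14, 2.89 and 2.52 in KO, with all KO libraries above the VC libraries and a spread among them that VC did not have. The log2 fold change was 0.69 (SE 0.17, 95% interval 0.27 to 1.12, adjusted p = 0.0331, limma). It passed again only without KO replicate 1 or KO replicate 3, and without VC replicate 1, VC replicate 2, VC replicate 3 or KO replicate 2 the adjusted p was 0.0858, 0.0892, 0.0946 and 0.0806. ANGPT2 lies wholly inside MCPH1 on the opposite strand, and whether the counting used strand is not given in the sources used here. MCPH1 read 0.21 to 0.33 in VC and 0.10 to 0.34 in KO (log2 fold change -0.03, adjusted p = 0.834), and its groups overlapped. Antisense genes annotated opposite VEGFA, VEGFC and KDR were not analysed here.

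ANGPT1 (chr8:107249482-107498055, minus strand), the agonist, read -0.52, -0.43 and -0.66 in VC and -0.41, -1.12 and -0.82 in KO. KO replicate 1 was the highest of the 6 libraries and the other KO libraries were the lowest, so the groups overlapped. Its log2 fold change was -0.24 (SE 0.20, 95% interval -0.74 to 0.25, adjusted p = 0.365). Both angiopoietins are on chromosome 8, whose other genes with a mean signal in the upper 50% were shifted by a median of -0.27 or -0.28 in log2 against -0.08 elsewhere, and the 20 of them nearest to ANGPT1 by -0.38. Of these genes, the 20 nearest to ANGPT2, which rose, were shifted by a median of -0.12. The part of these shifts in the values of either angiopoietin was not tested.

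The log2 difference of ANGPT2 minus ANGPT1 was 2.74, 2.54 and 2.80 in VC and 3.55, 4.0 and 3.34 in KO. It was larger in every KO library, by 0.94 on average (exact permutation p = 0.1, the smallest the design allows). With 1 library left out in turn the change ran from 0.75 to 1.08.

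TEK (chr9:27109141-27230175, plus strand), the receptor of both, read -7.03, -6.37 and -5.11 in VC and -4.19, -4.64 and -4.91 in KO. The groups did not overlap, but the signals were low and VC replicate 3 came close to the lowest KO library. The log2 fold change of 1.59 (SE 0.52, 95% interval 0.27 to 2.90) did not pass, with an adjusted p of 0.0674. It passed only without VC replicate 3 (2.12, adjusted p = 0.0441). With 1 added to the linear signal, which shrinks differences between low values, it was 0.037 (adjusted p = 0.212). TIE1, the orphan partner that modulates TEK, read 4.36, 4.21 and 4.34 in VC and 5.20, 5.35 and 5.32 in KO. It rose 1.99-fold (log2 fold change 0.99, SE 0.081, adjusted p = 0.00606) and passed with each library left out.

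ANGPTL4 (chr19:8363289-8374373, plus strand) had the largest change of the 10. It inhibits lipoprotein lipase, is induced by PPAR factors and by low oxygen, and has been studied as a regulator of vessel permeability. It read 2.03, 1.20 and 2.12 in VC and 3.24, 5.44 and 5.32 in KO. All KO libraries were above all VC libraries, but KO replicate 1 lay nearer to the highest VC library than to the other KO libraries. The means were 1.78 ± 0.51 and 4.67 ± 1.24 (SD, n = 3 each), a log2 fold change of 2.88 (SE 0.67, 95% interval 1.20 to 4.57, adjusted p = 0.0298, limma). The call held only without KO replicate 1, at a log2 fold change of 3.60 and adjusted p = 0.0057, and was lost without any of the other 5 libraries (0.0727 to 0.0839, at log2 fold changes of 2.5 to 3.05).

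A list of 13 genes of the PPAR and lipoprotein lipase axis, the known inducers and targets of ANGPTL4, was read beside it. Of 11 tested, 1 rose, 1 fell and 9 did not pass, with a median of -0.04. RXRB, a nuclear receptor partner of the PPARs, rose by 0.25 (adjusted p = 0.0415), and LPL, the lipase that ANGPTL4 inhibits, fell by 0.72 in log2 signal (adjusted p = 0.0464). Each of these calls held with only 1 of the 6 libraries left out. PPARD, a direct inducer of ANGPTL4, gave a log2 fold change of -0.19 (adjusted p = 0.222).

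Which library was left out set how many of the 10 passed. Without KO replicate 1 it was 5 higher and 0 lower, as PGF was lost. Without VC replicate 1 only VEGFA and VEGFC were left, 2 higher. Without each of the other 4 libraries 3 were higher, VEGFA and VEGFC among them each time. All genes moved likewise: with 1 library left out, the genes called higher numbered 654 to 2940, against 2526 from 6 libraries. KO replicate 1 was the lowest KO library for VEGFA, VEGFC and ANGPTL4 and the highest for FLT1 and ANGPT2. Of the 10 genes, 7 had groups that did not overlap, 6 with KO above and 1 below, where 59.3% of the 17698 genes with 6 values did not overlap, 22.6% with KO above and 36.7% below.

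**Figure D3:**
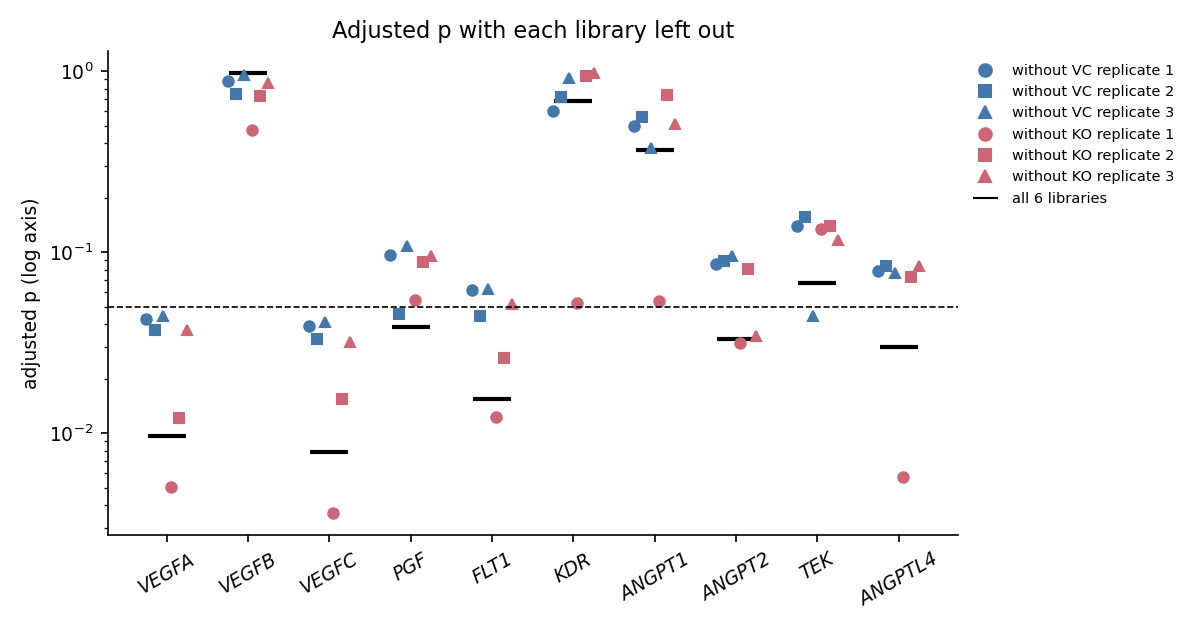
Adjusted p (limma, log axis) of each of the 10 genes in the fit of all 6 libraries and in the 6 fits that leave out 1 library; the line marks 0.05. VEGFA and VEGFC stay under the line in every fit, between 0.00362 and 0.0444, while FLT1, ANGPT2, ANGPTL4 and PGF cross it. TEK lies over the line in the fit of all 6 libraries and under it only without VC replicate 3.

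The other partners of these genes fell into lists by role. Of the 17 axis partners, 4 had no value in any library and 10 were tested: 4 rose (NRP2, TIE1, NRP1 and FLT4), 1 fell and 5 did not pass, with a median of 0.26. The one that fell was CCBE1, a secreted protein needed for the maturation of VEGFC, at -0.97, -1.44 and -1.18 in VC and -2.52, -3.30 and -2.69 in KO (log2 fold change -1.64, SE 0.24, adjusted p = 0.0128, and 0.0515 without VC replicate 3). ADAMTS3, the protease that works with CCBE1, gave a log2 fold change of 0.52 (adjusted p = 0.122). VEGFC and CCBE1 thus moved in opposite directions. VEGFD, the closest relative of VEGFC, had a value only in VC replicate 3, at -5.88. The 4 higher became 2 without VC replicate 1, VC replicate 3 or KO replicate 3.

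Of 25 other secreted pro-angiogenic factors, 20 were tested, 7 rose, 4 fell and 9 did not pass, with a median of 0.17. CXCL8, a chemokine that attracts neutrophils and stimulates endothelial cells, read 1.96, 2.03 and 1.86 in VC and 4.93, 5.10 and 3.75 in KO. Its rise of 2.64 (SE 0.37, adjusted p = 0.0117, limma) passed again with each library left out. CXCL1, a chemokine of the same receptor, rose by 1.56 (adjusted p = 0.0148, lost without VC replicate 1 or VC replicate 3), and TYMP, thymidine phosphorylase, by 1.46 (adjusted p = 0.0433, over the threshold with any library left out). FGF1, a fibroblast growth factor, went the other way, from -0.80, -0.93 and -1.06 in VC to -2.39, -2.95 and -3.00 in KO (log2 fold change -1.85, adjusted p = 0.00834), also with each library left out. The 7 higher became 4 without VC replicate 1 or VC replicate 3.

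Of 18 secreted inhibitors of angiogenesis, 13 were tested, 4 rose, 3 fell and 6 did not pass, with a median of -0.31. HSPG2, perlecan, whose C-terminal fragment is anti-angiogenic while the whole protein holds growth factors, rose by 1.59 (adjusted p = 0.0101), and SEMA3A, a semaphorin that binds NRP1, rose by 1.04 (adjusted p = 0.00789), both with each library left out. SEMA3F, which binds NRP2, fell by 0.70 (adjusted p = 0.0175), and VASH1, vasohibin, fell by 1.72 (adjusted p = 0.013). Both calls were lost without VC replicate 1 or VC replicate 3, and that of SEMA3F also without KO replicate 3. VASH1, like PGF, EGLN3 and HIF1A, is on chromosome 14. THBS1, thrombospondin, gave a log2 fold change of -0.72 and did not pass (adjusted p = 0.0535, and 0.0050 without KO replicate 1). Without VC replicate 1 or VC replicate 3 the count was 2 higher and 0 lower, and without KO replicate 1 it was 5 and 6.

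The HIF system, the known oxygen-dependent inducer of VEGFA and ANGPTL4, was taken as a pair of lists. Of 11 oxygen sensors and HIF subunits, 10 were tested, 1 rose, 2 fell and 7 did not pass. HIF1A (log2 fold change -0.18, adjusted p = 0.111) and EPAS1 (-0.06, adjusted p = 0.613, of either sign with the setting), which encode the oxygen-regulated subunits, did not pass, and their protein was not measured. EGLN3, a prolyl hydroxylase that is itself a HIF target, read 0.60, 0.39 and 0.47 in VC and -0.89, -2.14 and -1.14 in KO, and fell by 1.88 in log2 signal (adjusted p = 0.0177). EGLN1, the main prolyl hydroxylase, fell by 0.40 (adjusted p = 0.0264), and CITED2, a HIF-induced inhibitor of HIF, rose by 0.63 (adjusted p = 0.0259). Each of these 3 calls held with only 2 of the 6 libraries left out.

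Of 20 HIF target genes other than the 10, 19 were tested, 8 rose, 1 fell and 10 did not pass, with a median of 0.71. Those that rose the most were NDRG1 (2.08, adjusted p = 0.0191), MXI1 (1.30, adjusted p = 0.0143), ALDOC (1.06, adjusted p = 0.0241) and BNIP3L (1.06, adjusted p = 0.0305). NDRG1 read 2.56, 2.21 and 2.56 in VC and 3.66, 5.04 and 4.86 in KO, with the KO libraries in the same order as for ANGPTL4. The glycolytic enzyme gene LDHA fell by 0.43 (adjusted p = 0.0128), and CA9, a gene widely used as a hypoxia marker, had a value in only 2 VC libraries and in no KO library. The mean log2 signal of the 19 genes was 3.18, 3.10 and 3.18 in VC and 3.39, 4.11 and 4.0 in KO. The count of 8 higher changed with the library left out, to 16 without KO replicate 1 and 3 without KO replicate 2. It was 1 without VC replicate 2 and 0 without VC replicate 1, VC replicate 3 or KO replicate 3. Over all genes the 2526 called higher became 2940 without KO replicate 1, 1734 without KO replicate 2 and 1054 without VC replicate 2. They became 757, 654 and 988 without VC replicate 1, VC replicate 3 and KO replicate 3.

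Of 28 genes of signalling below the VEGF receptors, 25 were tested, 2 rose, 6 fell and 17 did not pass, with a median of -0.09, close to that of all genes. SH2D2A, an adaptor that binds KDR, rose by 1.64 (adjusted p = 0.0179), and PIK3CD, a catalytic subunit of PI3-kinase, rose by 0.94 (adjusted p = 0.011). The adaptor gene GAB1 fell by 0.71 (adjusted p = 0.0317) and PIK3R1, a regulatory subunit of PI3-kinase, by 0.59 (adjusted p = 0.0286). SH2D2A, GAB1 and PIK3R1 each passed with only 2 of the 6 libraries left out, PIK3CD with all 6, and the 2 higher became 1 without any VC replicate or KO replicate 3. The 6 lower became 0 without VC replicate 1 or VC replicate 3, 1 without VC replicate 2 or KO replicate 3, and 3 without KO replicate 2.

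**Figure D4:**
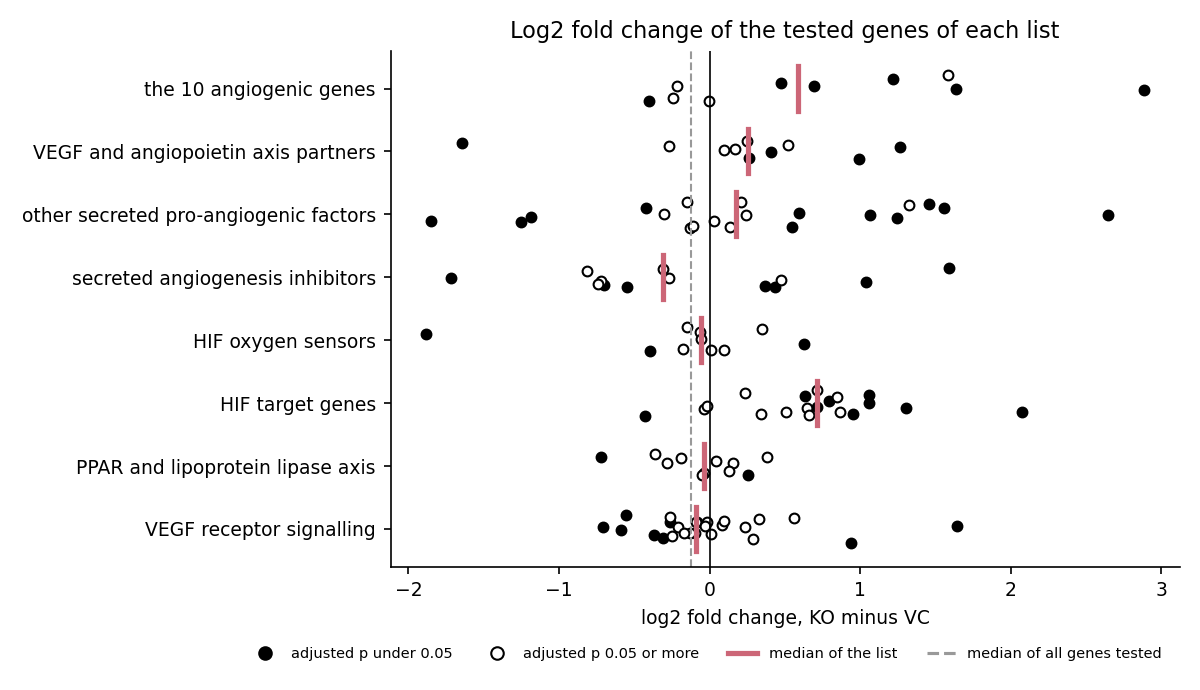
Log2 fold change (KO minus VC) of every tested gene of the 10 and of the 7 pathway lists, 1 row per list; filled points passed at an adjusted p under 0.05, vertical bars are list medians and the dashed line is the median of all genes. HIF targets have the highest list median, 0.71, and the inhibitors the lowest, -0.31.

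Since FLT1, KDR, TEK and TIE1 are endothelial genes in tissue, endothelial markers were read beside them. Of 12, 9 were tested, 2 rose, 1 fell and 6 did not pass. ROBO4 rose by 2.57 (adjusted p = 0.00789) and ECSCR by 0.77 (adjusted p = 0.0236), and SOX18 fell by 1.10 in log2 signal (adjusted p = 0.0117). ROBO4 and SOX18 passed with each library left out, and ECSCR with only 2 of 6, at adjusted p up to 0.0782. The defining markers PECAM1, CDH5 and VWF had low signals in both groups, none above -4.64.

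Of 8 pericyte and smooth muscle markers, 7 were tested, 1 rose (PDGFRB, 1.18) and 3 fell. Those that fell were MYH11 (by 1.85), MCAM (by 1.79) and ACTA2 (by 0.79). MYH11 signals were low, at -5.23 to -5.05 in VC and -7.65 to -6.32 in KO. PDGFRB and MCAM passed with each library left out, MYH11 and ACTA2 with only 2 of 6, and the 3 lower became 1 without VC replicate 1, 2 or 3. Of 11 osteoblast lineage markers, 8 were tested, 4 rose, SPP1 by 1.55 among them, and 1, COL1A2, fell. The 4 higher became 1, SPP1, without VC replicate 1, 2 or 3 or KO replicate 3, and COL1A2 passed with only 3 of the 6 left out. Of 8 blood and immune markers, 4 were tested and 1 rose, CD68 by 1.66, while PTPRC, which defines leukocytes, lay at -7.12 to -4.35. Of 5 epithelial markers, 4 were tested, KRT8 rose by 0.59 and EPCAM fell by 0.67, each passing with only 3 of the 6 left out. The part of these markers in the values of the 10 genes was not tested.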

How the data were processed

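RNA from 3 VC and 3 KO samples of 143B cells was sequenced by the authors. The labels name an Illumina TruSeq stranded mRNA kit. In the methods, total RNA was sequenced on a NextSeq instrument and analysed in CLC Genomics and Partek Genomics Suite. The submitters' processing notes name CASAVA, STAR, Partek and GRCh38.p13. The authors deposited quantile-normalized log2 signals by symbol; counts, depth and the linear unit are not given in the sources used here. Genes with at least 2 values per group (19306 of 54308) were compared in limma 3.58.1 (R 4.3.3) without trend, two-sided, with Benjamini-Hochberg adjustment. The script was tested on simulated data.

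The 10 genes, the 7 pathway lists and the 5 marker lists were chosen with earlier results of these data known. Named genes are the 10, up to 4 genes per list with the largest change past the threshold and no overlap of groups, VEGFD, FLT4, NRP1, NRP2, TIE1, HIF1A, EPAS1, THBS1, PPARD and CNTNAP4. ADAMTS3, LDHA, CA9, MCPH1, RUNX2, COL1A1, SP7, BGLAP, IBSP, DMP1, EGFL7, ERG, PTPRC, PECAM1, CDH5, VWF and CLDN5 were added after their values were seen. Positions are from GENCODE 29 and upstream sequences from RefSeq (GRCh38.p14), both matched by symbol. Alternatives were set before fitting: filters, median-centring, 1 added to the linear signal, empty cells set to the library's lowest value, other variance settings, a replicate block, a 2-fold minimum and each library left out.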

Additional observations from a re-analysis of the deposited data

How the results depend on the processing

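Of the 10 genes, 5 were higher and 1 lower. Without variance moderation 3 were higher and 0 lower, with at least a 2-fold change 3 and 0, and with the replicate block 2 and 0 (VEGFA and VEGFC, adjusted p = 0.0472 each). With 1 library left out in turn 2 to 5 were higher and 0 to 1 lower. The 1 lower gene, PGF, was lost with median-centred libraries and with empty cells set to the library's lowest value (0 each). The empty-cell setting also lost ANGPT2 (adjusted p = 0.0507, limma), which left 4 higher. The 7 pathway lists together had 27 genes higher and 18 lower, 8 and 6 with the replicate block, and 9 to 40 and 3 to 25 with 1 library left out. The replicate numbers did not pair the samples: deviations of same-numbered libraries correlated at 0.0226, 0.00509 and -0.00736. Over all genes the 2526 higher and 3828 lower became 661 and 1079 with the block, 1990 and 2442 without variance moderation, and 654 to 2940 and 569 to 5729 with 1 library left out. Adding 1 to the linear signal moved the median of all genes from -0.13 to -0.02. The sign of VEGFB turned to 0.080 with median-centred libraries and to 0.027, 0.014 and 0.073 without VC replicate 1, VC replicate 3 and KO replicate 1. KDR turned to 0.022 without KO replicate 3, and EPAS1 to 0.023 with median-centred libraries and 0.0049 without KO replicate 1. With 1 library left out VEGFB ran from -0.052 to 0.073, KDR from -0.61 to 0.022 and EPAS1 from -0.11 to 0.0049. The causes were not tested. With the depth unknown, the precision of low signals such as KDR and TEK cannot be given.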
